A study of Mus musculus with 6 samples.

Results

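The genes of fatty acid synthesis and of malonyl-CoA control were followed in the heart ventricle of mice fed a western diet (WD) and then treated with Tributyrin or vehicle. The 10 genes were taken from a list of names by their role, and the list was chosen with earlier results of these data known. Each was found by its Ensembl identifier among the 54232 features of the count files: *Srebf1*, *Acly*, *Acaca*, *Acacb*, *Mlycd*, *Fasn*, *Scd1*, *Scd2*, *Elovl5* and *Elovl6*. All 10 passed the filter on low counts that left 14133 genes for testing. With Tributyrin, the measured levels of the pathway moved little against the spread between mice: 0 of the 10 genes passed an FDR of 10% or 5% with edgeR's quasi-likelihood test, where 0% of all genes tested passed, and 0 had an unadjusted p under 0.05, against 4.25% of all genes tested. DESeq2 and limma-voom also gave 0 of the 10 at either bar.

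Fatty acids are built in the cytosol from acetyl-CoA. ATP citrate lyase cuts citrate into acetyl-CoA, an acetyl-CoA carboxylase turns this into malonyl-CoA, and fatty acid synthase joins malonyl units into palmitate, which elongases lengthen and desaturases give a double bond. The heart makes little fat in this way and burns much of it. Here malonyl-CoA is best known as the inhibitor of carnitine palmitoyltransferase 1, the gate for fatty acids into mitochondria, and its level is set between acetyl-CoA carboxylase, which makes it, and malonyl-CoA decarboxylase, which removes it.

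Both groups were C57BL/6J mice of wild-type genotype that had received WD for 15 weeks. For the following 3 weeks, 3 mice were needle-fed Tributyrin, a butyrate triglyceride, at 5 g/kg body weight (WD + Tributyrin) and 3 received vehicle, which the labels call PBS (WD + Vehicle), in cycles of 2 days on and 2 days off. Each library is RNA from the ventricle of 1 labelled mouse, no chow-fed group was analysed here, and the sources used here give neither the sex of each mouse nor its exact age. Normalized read counts below are the deposited counts divided by a size factor per library, and fold changes are WD + Tributyrin over WD + Vehicle on the log2 scale.

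The libraries held 20369746 to 32734485 counts on genes. The 6 ventricular cardiomyocyte markers, contractile and calcium-handling genes such as *Myh6* and *Tnnt2*, summed to 49844 to 51420 counts per 1e6 (CPM) with vehicle and 45381 to 49491 CPM with Tributyrin. They were abundant in every library, as the ventricle label says. The CPM sums of the groups did not overlap. CPM scales by library size alone, and with that scaling the median log2 fold change of all genes tested was -0.0736. Whether scaling had a part in the lower sums was not tested. In normalized read counts the groups were apart for 1 of the 6 markers, *Tnni3*, which was higher with Tributyrin. Such a separation was seen in 8.91% of all genes tested. The single markers went both ways, with fold changes above 0 for 4 of the 6, among them *Tnnt2* (0.23) and *Tnni3* (0.21), and below 0 for *Actc1* (-0.21) and *Myh6* (-0.08). The 4 atrial markers (*Sln*, *Myl7*, *Myl4* and *Nppa*) summed to 175.0, 173.1 and 55.7 CPM in the vehicle mice and 29.9, 62.8 and 42.95 CPM in the Tributyrin mice. Fold changes were below 0 for 4 of 4, but the groups overlapped in each. The high sums were those of vehicle mice 1 and 2, while vehicle mouse 3 lay within the Tributyrin range. *Nppa* differed, with its highest value in vehicle mouse 3. Y-linked transcripts were present in all 6 libraries, with *Ddx3y* at 1802 to 2241 normalized read counts, and *Xist* had at most 6 counts. This is the pattern of male mice, though no label states the sex. In bulk ventricle, fewer cells of a type and less RNA per cell cannot be told apart, and the part of tissue makeup in the values below was not tested.

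Across the 10 genes, 7 had a fold change above 0, where 49.6% of all genes tested did, and 3 had one below 0. Their median log2 fold change was 0.05, against -0.0013 for all genes tested, and the range ran from -0.19 for *Acly* to 0.29 for *Elovl6*. In none of the 10 did all Tributyrin mice lie on one side of all vehicle mice, a separation seen in 8.91% of all genes tested. The 95% confidence intervals of the 9 genes other than *Elovl6* ran at their lowest to 0.758-fold, for *Acly*, and at their highest to 1.46-fold, for *Srebf1*. Each gene's own interval is given with its values below.

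**Figure D1:**
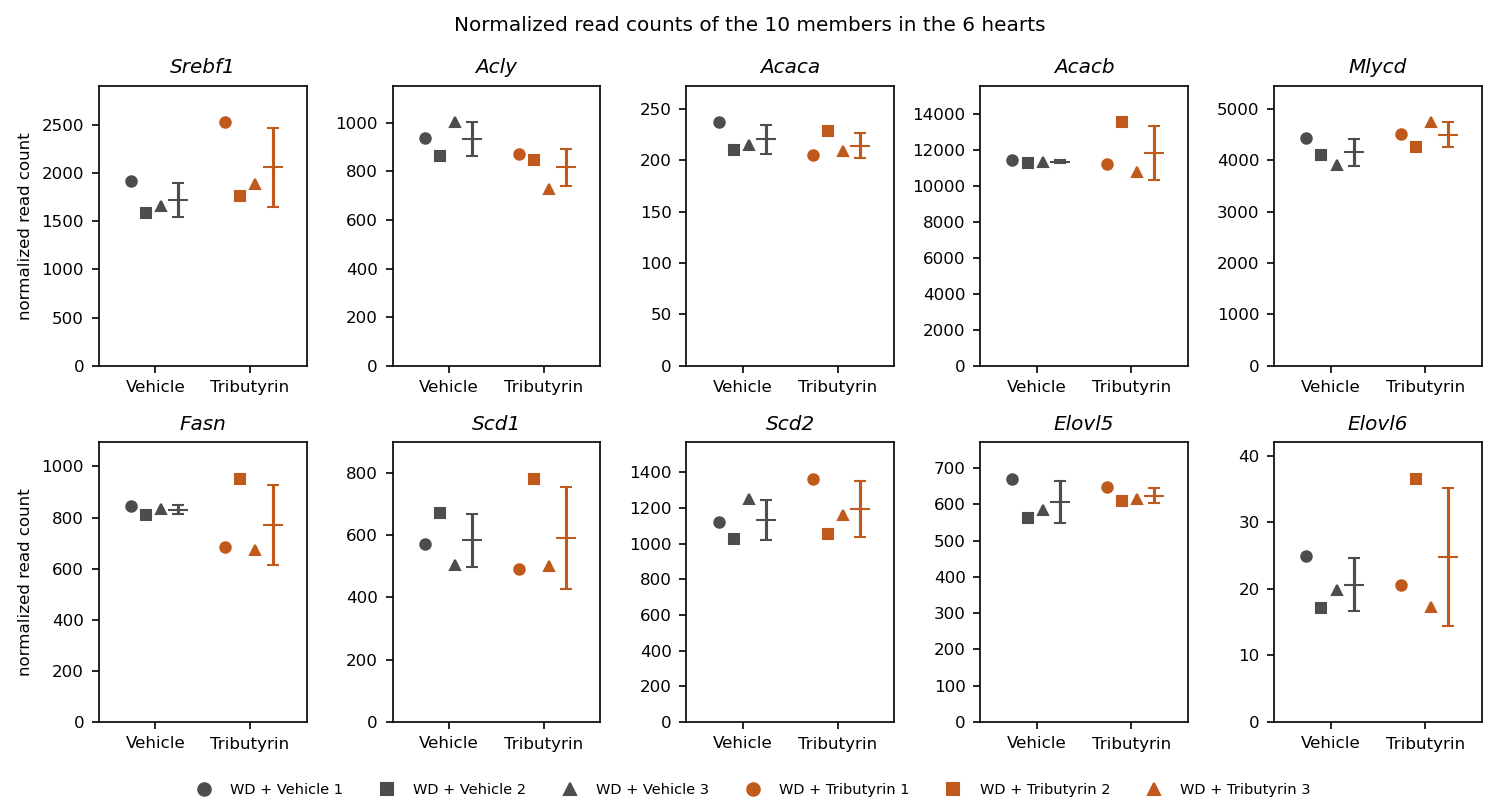
Normalized read counts of the 10 genes (vertical axes, each from 0) in the 3 WD + Vehicle and 3 WD + Tributyrin hearts. Each symbol is 1 heart and the bar beside it is the group mean with its SD; the groups overlapped for every gene, and the highest *Acacb*, *Fasn*, *Scd1* and *Elovl6* values all belonged to Tributyrin mouse 2.

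*Srebf1* encodes SREBP-1, the membrane-bound transcription factor that turns on lipogenic genes after its release by proteolysis. It lies on the minus strand of chromosome 11 (GRCm38 60199089 to 60222581). Its normalized read counts were 1918, 1589 and 1659 in the vehicle mice and 2526, 1757 and 1892 in the Tributyrin mice. Tributyrin mouse 1 stood above all others, while the other two Tributyrin values lay within the vehicle range. The group means were 1722 ± 173 (SD, n = 3) for vehicle and 2058 ± 411 (SD, n = 3) for Tributyrin. The log2 fold change was 0.26 (SE 0.13, 95% interval -0.03 to 0.55, edgeR adjusted p = 0.999), and it was 0.09 without Tributyrin mouse 1. *Srebf1* ranked 921st of the 14133 genes by unadjusted p (0.0739 in edgeR, 0.053 in DESeq2). Its exons share 109 bases with *Rai1* on the opposite strand, which had 660 to 1177 counts, and whether strand was used in the counting is not stated. The count adds up all *Srebf1* transcripts, so the SREBP-1a and SREBP-1c forms were not separated, and it says nothing of how much of the protein was cleaved.

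*Acly* encodes ATP citrate lyase, the source of cytosolic acetyl-CoA. On the minus strand of chromosome 11 (100476353 to 100528000), it gave 939, 863 and 1001 normalized read counts with vehicle and 872, 849 and 728 with Tributyrin. Only Tributyrin mouse 1, just above vehicle mouse 2, made the groups overlap. The means were 934 ± 69.3 (SD, n = 3) and 816 ± 76.9 (SD, n = 3), a log2 fold change of -0.19 (SE 0.09, 95% interval -0.40 to 0.02, edgeR adjusted p = 0.999). In edgeR this was the smallest unadjusted p of the 10 genes (0.0701), at rank 867 of the 14133 genes tested, while in DESeq2 it was 0.0899, above that of *Srebf1*. It stayed below 0 whichever mouse was left out, between -0.25 and -0.11.

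The 2 acetyl-CoA carboxylases differed far more from each other than between the groups. *Acacb* encodes the isoform of heart and skeletal muscle, which sits at the outer mitochondrial membrane where malonyl-CoA meets carnitine palmitoyltransferase 1. It is on the plus strand of chromosome 5 (114146535 to 114250761). The vehicle mice gave 11416, 11229 and 11322 normalized read counts, and the Tributyrin mice 11179, 13506 and 10739. The vehicle values lay close together, with an SD of 93.5, and the 2 lowest and the highest of the 6 were all in the Tributyrin group. This gave a log2 fold change of 0.06 (SE 0.09, 95% interval -0.14 to 0.26), which was -0.05 without Tributyrin mouse 2.

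*Acaca*, the cytosolic isoform that supplies fatty acid synthase, lies on the plus strand of chromosome 11 (84129672 to 84401651). Its values were 237, 210 and 215 normalized read counts with vehicle and 206, 228 and 209 with Tributyrin, almost the same span in both groups. The log2 fold change was -0.04 (SE 0.11, 95% interval -0.29 to 0.21). In the annotation, 30.4% of the 50-base words of its transcripts also occur in other genes, so reads from there may be missing from its count. The log2 ratio of *Acacb* to *Acaca* counts in the same library was 5.59, 5.74 and 5.71 with vehicle and 5.76, 5.88 and 5.68 with Tributyrin, which is a 48- to 59-fold excess of *Acacb* reads. The group means differed by 0.10 (two-sided exact permutation test, p = 0.4, where 0.1 is the smallest p that 3 mice against 3 can give). Per kb of exon, *Acacb* stood 91.0-fold ± 5.0 (SD, n = 3) above *Acaca* in the vehicle mice and 97.2-fold ± 6.9 (SD, n = 3) in the Tributyrin mice. Non-coding transcripts lengthen the annotated *Acaca*, and per kb of coding transcripts the excess was 57.3-fold ± 3.2 (SD, n = 3) and 61.2-fold ± 4.3 (SD, n = 3).

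*Mlycd* encodes malonyl-CoA decarboxylase, which returns malonyl-CoA to acetyl-CoA. It is on the plus strand of chromosome 8 (119394878 to 119411102). The vehicle mice gave 4448, 4109 and 3917 normalized read counts and the Tributyrin mice 4512, 4253 and 4741. Tributyrin mice 1 and 3 stood above every vehicle mouse, and Tributyrin mouse 2 stood within the vehicle range. The means were 4158 ± 269 (SD, n = 3) and 4502 ± 244 (SD, n = 3), with a log2 fold change of 0.12 (SE 0.08, 95% interval -0.05 to 0.28, edgeR adjusted p = 0.999). The log2 ratio of *Mlycd* to *Acacb*, the breakdown of malonyl-CoA set against its synthesis at the mitochondrion, was -1.36, -1.45 and -1.53 with vehicle and -1.31, -1.67 and -1.18 with Tributyrin. The Tributyrin mice held both the highest values and the lowest value of this ratio. Its group means differed by 0.06 (two-sided exact permutation test, p = 0.7). Per kb of exon the 2 transcripts were close, at 1.19 ± 0.07 (SD, n = 3) *Mlycd* per *Acacb* in the vehicle mice and 1.26 ± 0.21 (SD, n = 3) in the Tributyrin mice. Per kb of coding transcripts the ratio was higher, at 1.57 ± 0.09 (SD, n = 3) and 1.65 ± 0.28 (SD, n = 3).

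The stretches of 250 bases before the RefSeq starts of *Acly*, *Acacb*, *Mlycd* and *Fasn* (build GRCm38.p6) are shown because these 4 genes supply, make, remove and use malonyl-CoA. Each is written 5′ to 3′ on the strand of its gene, with matches on either strand to CCAAT (the NF-Y element), GGGCGG (the Sp1 box), CACGTG (the E-box) and TCACNCCAC (the SREBP element) in capitals. The places are chr11:100528001-100528250 (minus strand) for *Acly*, chr5:114165268-114165517 (plus strand) for *Acacb*, chr8:119394644-119394893 (plus strand) for *Mlycd* and chr11:120824548-120824797 (minus strand) for *Fasn*. The *Acacb* stretch lies before an internal start, inside the annotated gene that begins at 114146535.
Acly: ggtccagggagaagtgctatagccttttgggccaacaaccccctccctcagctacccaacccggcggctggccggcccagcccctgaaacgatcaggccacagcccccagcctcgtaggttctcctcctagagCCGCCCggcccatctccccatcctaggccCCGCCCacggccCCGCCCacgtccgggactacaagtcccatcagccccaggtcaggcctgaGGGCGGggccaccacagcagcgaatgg
Acacb: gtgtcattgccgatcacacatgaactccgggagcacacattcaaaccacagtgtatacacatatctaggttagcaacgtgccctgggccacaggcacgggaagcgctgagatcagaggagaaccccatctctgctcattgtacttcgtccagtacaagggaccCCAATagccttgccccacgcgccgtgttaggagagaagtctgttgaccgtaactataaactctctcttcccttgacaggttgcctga
Mlycd: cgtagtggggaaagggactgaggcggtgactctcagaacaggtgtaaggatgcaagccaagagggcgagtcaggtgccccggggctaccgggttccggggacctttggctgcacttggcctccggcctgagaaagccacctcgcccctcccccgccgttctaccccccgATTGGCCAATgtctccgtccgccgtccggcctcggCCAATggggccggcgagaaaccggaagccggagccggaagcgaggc
Fasn: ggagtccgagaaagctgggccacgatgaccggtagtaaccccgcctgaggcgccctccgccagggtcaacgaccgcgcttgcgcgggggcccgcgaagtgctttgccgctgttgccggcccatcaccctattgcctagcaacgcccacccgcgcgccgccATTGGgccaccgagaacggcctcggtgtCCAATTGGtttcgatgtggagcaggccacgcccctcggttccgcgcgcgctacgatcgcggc

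The table of RefSeq starts held 10 such stretches for 8 of the 10 genes, 3 of them for *Srebf1*. Those of *Acacb* and *Acaca* and some of those of *Srebf1* lie inside the annotated gene. CCAAT occurred in 6 of the 10 stretches, where 33.8% of 32851 stretches of the same length hold it. These lay before 5 of the 8 genes (*Acacb*, *Elovl5*, *Fasn*, *Mlycd* and *Srebf1*). *Fasn* and *Mlycd* had 3 matches each, and 2 of those of *Fasn* overlap each other. GGGCGG occurred in 3 of the 10 stretches, before *Acly*, 4 times, and before *Srebf1*, and 32.7% of all stretches hold it. CACGTG occurred in 1 of the 10 stretches, that of *Elovl5*, against 6.02% of all stretches, and the SREBP element in 0 of the 10, against 1.05%. A match is a run of letters and not a measured binding site.

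*Fasn* encodes fatty acid synthase, the enzyme that builds palmitate. It lies on the minus strand of chromosome 11 (120805846 to 120824547). The vehicle mice gave 847, 812 and 832 normalized read counts, and the Tributyrin mice 686, 952 and 675. The vehicle values were tight, and the Tributyrin mice fell on both sides of them, mice 1 and 3 below and mouse 2 above. The means were 831 ± 17.7 (SD, n = 3) and 771 ± 157 (SD, n = 3), a log2 fold change of -0.10 (SE 0.13, 95% interval -0.38 to 0.18, edgeR adjusted p = 0.999). Without Tributyrin mouse 2 the log2 fold change was -0.29 (edgeR adjusted p = 0.389).

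The stearoyl-CoA desaturases *Scd1* and *Scd2* place the double bond that turns stearate into oleate, and they are neighbours on chromosome 19 (44394455 to 44407879 on the minus strand and 44293674 to 44306864 on the plus strand). *Scd1* gave 572, 672 and 503 normalized read counts with vehicle and 492, 780 and 500.1 with Tributyrin. Mouse 2 was the highest of both groups. Its log2 fold change was 0.02 (SE 0.18, 95% interval -0.37 to 0.41), and it was -0.24 without Tributyrin mouse 2 (edgeR adjusted p = 0.576). *Scd2* gave 1124, 1026 and 1250 normalized read counts with vehicle and 1363, 1056 and 1159 with Tributyrin. Here the order was turned, with mouse 2 the lowest of each group. The log2 fold change of *Scd2* was 0.08 (SE 0.11, 95% interval -0.16 to 0.32).

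The log2 ratio of *Scd1* to *Scd2* therefore spread widely within each group, from -1.31 to -0.61 with vehicle and from -1.47 to -0.44 with Tributyrin. The group means differed by -0.07 (two-sided exact permutation test, p = 0.9). *Scd1* and *Scd2* share 4.56% and 3.97% of their 50-base words with each other, with *Scd3* and with *Scd4*, so a small share of their reads could be assigned to another desaturase or dropped.

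Of the elongases, *Elovl5* extends polyunsaturated chains and *Elovl6* extends palmitate to stearate. *Elovl5* (chromosome 9, 77917364 to 77984519, plus strand) gave 670, 561 and 584 normalized read counts with vehicle and 647, 609 and 615 with Tributyrin. The 3 Tributyrin values lay inside the vehicle range. Its log2 fold change was 0.05 (SE 0.09, 95% interval -0.16 to 0.25). *Elovl6* (chromosome 3, 129532355 to 129638495, plus strand) was the scarcest of the 10 genes, at 24.95, 17.1 and 19.9 normalized read counts with vehicle and 20.6, 36.6 and 17.2 with Tributyrin. Tributyrin mouse 2 was again the high value, and the other two lay within the vehicle range.

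The log2 fold change of *Elovl6* was 0.29 (SE 0.36, 95% interval -0.50 to 1.08), which allows anything from a fall of 0.50 to a rise of 1.08 on that scale, and it was -0.11 without Tributyrin mouse 2. Its lowest count was 15, where counting error alone has an SD of 25.8%, while the lowest *Acacb* count carries one of 1.05%. The log2 ratio of *Elovl5* to *Elovl6* averaged 4.85 ± 0.15 (SD, n = 3) in the vehicle mice and 4.70 ± 0.58 (SD, n = 3) in the Tributyrin mice, a difference of -0.15 (two-sided exact permutation test, p = 0.9).

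**Figure D2:**
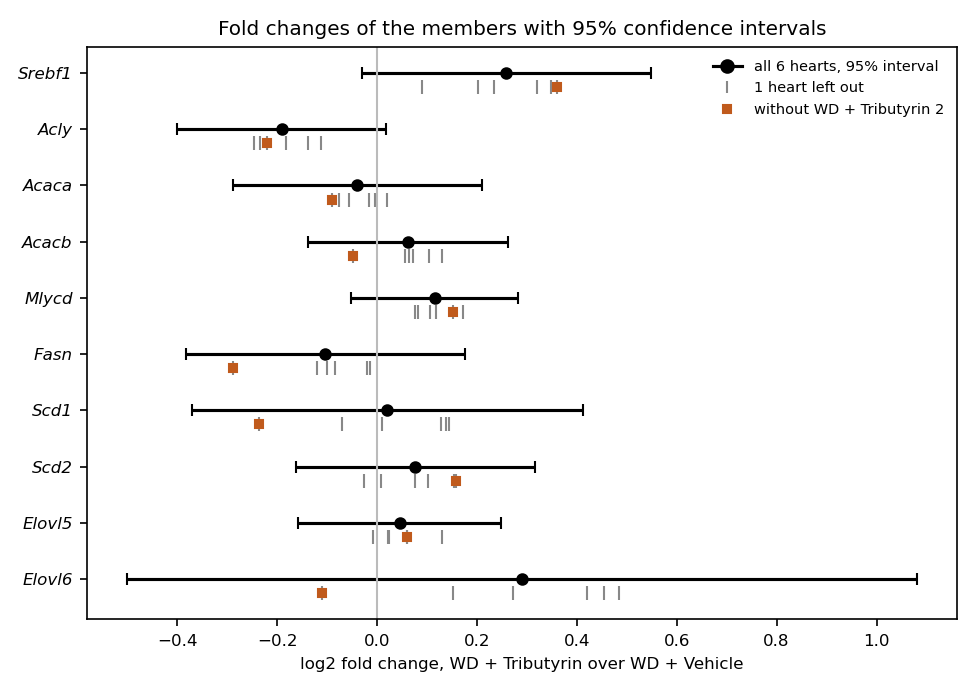
Log2 fold changes of the 10 genes, WD + Tributyrin over WD + Vehicle (horizontal axis). Black points with bars are the estimates from all 6 hearts with 95% confidence intervals, grey ticks are estimates with 1 heart left out, and orange squares are those without Tributyrin mouse 2. Every interval includes 0, and for *Fasn*, *Scd1*, *Acaca*, *Acacb* and *Elovl6* the square is the lowest estimate.

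**Figure D3:**
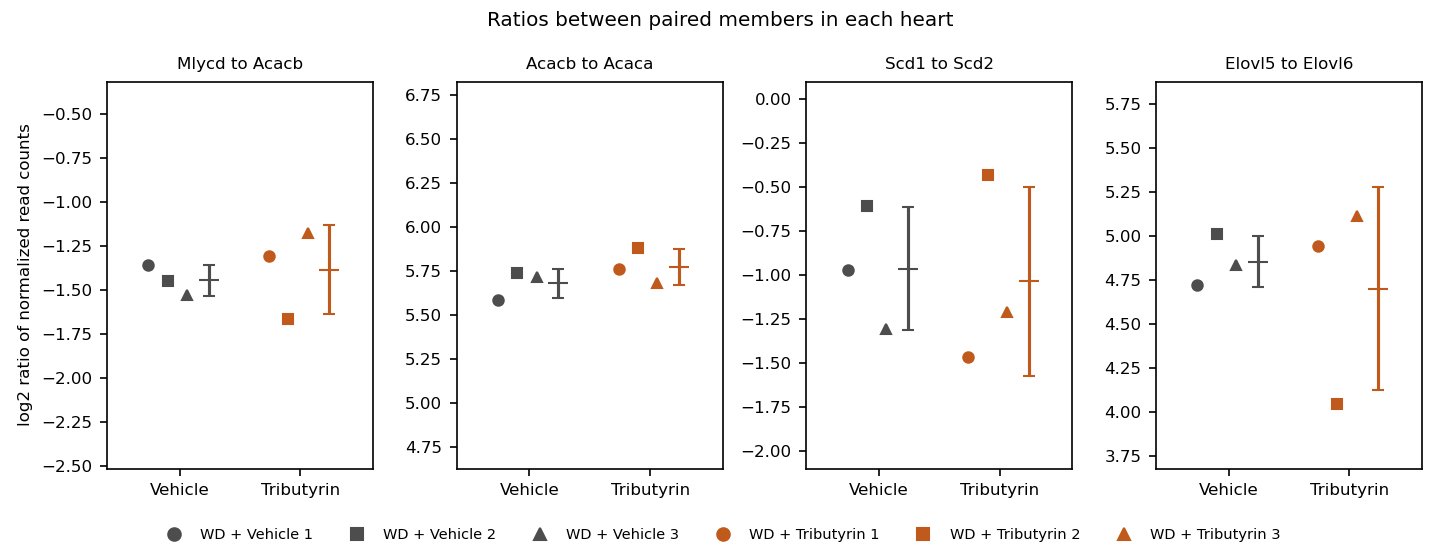
Log2 ratios of normalized read counts (vertical axes, all spanning the same number of log2 units) between 2 genes in the same heart, for *Mlycd* to *Acacb*, *Acacb* to *Acaca*, *Scd1* to *Scd2* and *Elovl5* to *Elovl6*. Symbols are single hearts and bars the group mean with its SD; the groups overlapped in all 4 ratios, and Tributyrin mouse 2 was at one end of each.

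The 10 genes did not move as 1 block across the mice. Tributyrin mouse 2 had the highest value of the 6 for 4 genes (*Acacb*, *Fasn*, *Scd1* and *Elovl6*), by 0.25, 0.20, 0.43 and 0.83 above the vehicle mean on the log2 scale. In the same mouse *Srebf1* was at 0.03 above that mean, *Scd2* at -0.10 and *Acly* at -0.14. Vehicle mouse 2 had the lowest value for 4 genes (*Srebf1*, *Scd2*, *Elovl5* and *Elovl6*). *Srebf1* and *Scd2* shared Tributyrin mouse 1 as their highest value, at 0.56 and 0.27 above the vehicle mean.

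The summed level of the white adipocyte markers was also highest in Tributyrin mouse 2. The 7 markers (*Adipoq*, *Plin1*, *Cidec*, *Cfd*, *Retn*, *Lep* and *Car3*) summed to 1.54, 4.49 and 1.28 CPM in the vehicle mice and to 1.36, 7.45 and 1.23 CPM in the Tributyrin mice. Tributyrin mouse 2 and vehicle mouse 2, with the highest sums, were also the 2 mice with the highest *Scd1*. The other genes did not share this order: vehicle mouse 2 had the lowest *Elovl6* of the 6 mice (17.1 normalized read counts) and the lowest *Fasn* of the vehicle mice (812). *Adipoq*, the adiponectin gene, had 15 and 16 counts in these 2 libraries and 0 to 3 in the other 4, and *Plin1*, which coats the fat droplet, had 39 counts in Tributyrin mouse 2 and 3 to 17 elsewhere. *Car3* had the most counts of the 7, with 116 in Tributyrin mouse 2, 66 in vehicle mouse 2 and 10 to 20 elsewhere. Not every marker had its highest value in Tributyrin mouse 2: *Lep*, the leptin gene, had 0 counts there and 1 to 7 in the vehicle mice, and *Cidec* was at 14.6 normalized read counts there against 14.7 in vehicle mouse 2. Of the 3 brown adipocyte markers, *Ucp1* and *Elovl3* were at 0 in all 6 libraries, while *Cidea* had 452 to 793 counts. Whether fat tissue in the sample had a part in the *Scd1*, *Fasn* or *Elovl6* values was not tested.

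**Figure D4:**
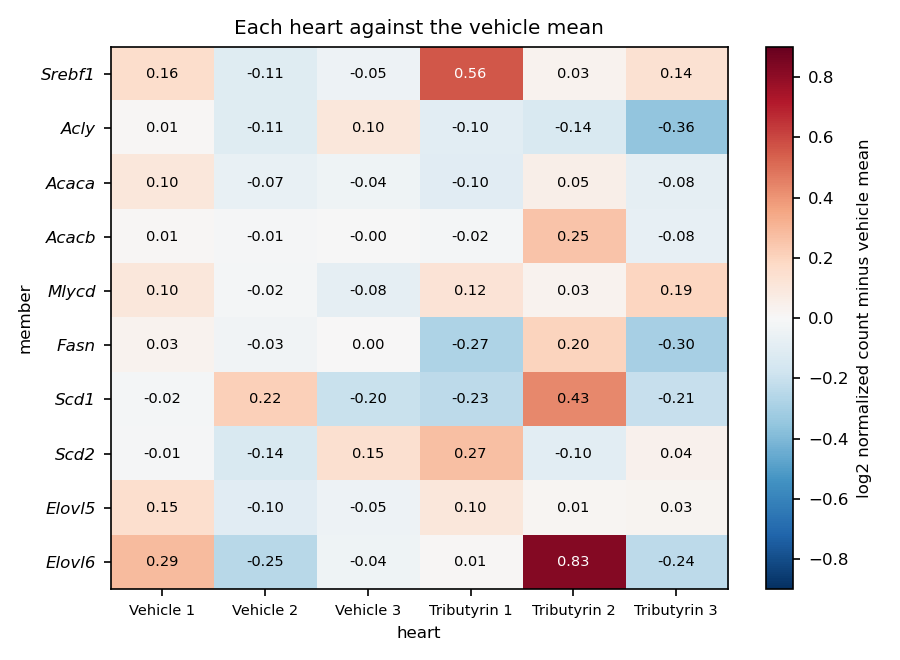
Log2 normalized read count of each of the 10 genes (rows) in each heart (columns) minus the mean of the 3 vehicle hearts, in colour and as a number. *Elovl6* in Tributyrin mouse 2, *Srebf1* in Tributyrin mouse 1 and *Scd1* in Tributyrin mouse 2 deviate most, at 0.83, 0.56 and 0.43.

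*Elovl6* and *Scd1* had the largest SD of log2 values over the 6 libraries, 0.41 and 0.27. The genes whose log2 profile over the 6 libraries was nearest to that of *Elovl6* were *Clec10a*, a macrophage lectin, *C3*, the complement component, and *Stum*, at root mean square distances of 0.08, 0.09 and 0.10. *C3* gave 3963, 2809 and 3584 normalized read counts with vehicle and 3134, 6074 and 3088 with Tributyrin. It was picked for its likeness to *Elovl6*, so its peak in Tributyrin mouse 2 is no separate observation. Nearest to *Scd1* were *Unc45bos*, *Pfkfb4*, which regulates glycolysis, and *Scarb2*, a lysosomal membrane protein, at distances of 0.05, 0.08 and 0.08. *Scarb2* gave 3821, 4992 and 3615 normalized read counts with vehicle and 3924, 5353 and 3700 with Tributyrin. *Unc45bos* is annotated on the strand opposite a coding gene, and its reads cannot be assigned without the strand setting. The *Elovl6* profile itself rests on low counts, with a counting SD of 25.8% at its lowest count. These likenesses rest on 6 libraries that share their depth with the genes compared, and are given as a description.

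Per kb of annotated exon, the pathway was uneven in the ventricle. *Mlycd* and *Acacb*, which set malonyl-CoA at the mitochondrion, led with vehicle means of 1401 and 1175 normalized read counts per kb, above 95.8% and 95.02% of the genes tested. Across mice their ranges overlapped, since the highest *Acacb* value (1402) passed the lowest *Mlycd* value (1320), but within each of the 6 libraries *Mlycd* was the higher per kb, by 1.02- to 1.43-fold, and by 1.34- to 1.88-fold per kb of coding transcripts. *Srebf1* followed at 306 per kb, clear of both its neighbours. *Scd2*, *Acly*, *Elovl5* and *Scd1* came next at 207, 177, 172 and 119 per kb, and neighbours in this run overlapped. *Fasn*, at 75.9 per kb, was near the middle of the genes tested, above 50.3% of them. *Acaca* stood at 12.9 per kb, or 21.8 per kb of its coding transcripts, because non-coding transcripts add to its annotated length (17.1 kb against 10.1 kb). *Elovl6*, at 3.21 per kb, was above only 3.29% of the genes tested.

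**Figure D5:**
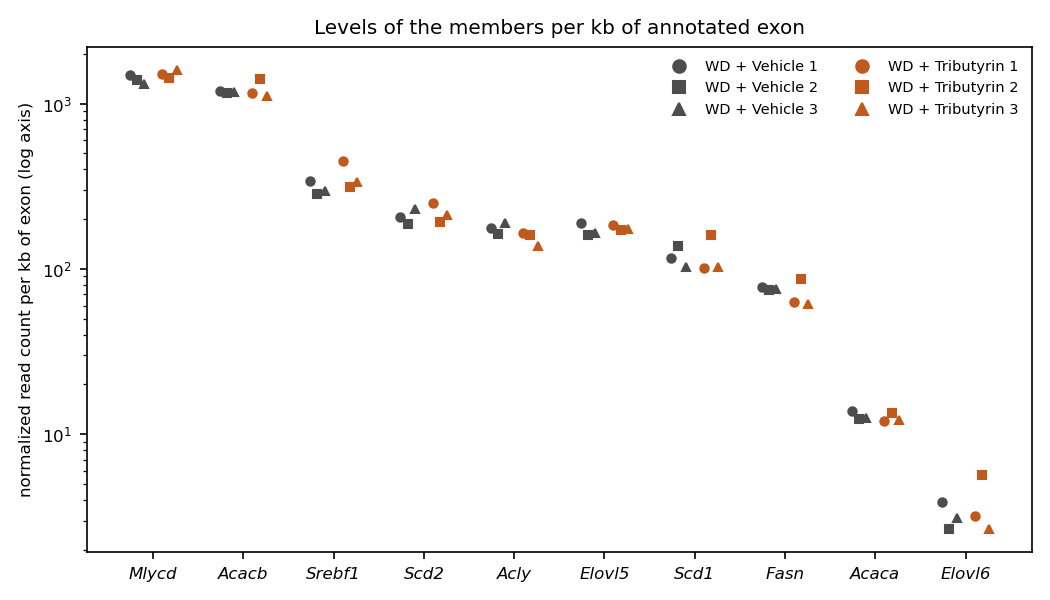
Normalized read count per kb of annotated exon (vertical log axis) of the 10 genes, in order of the vehicle mean. Each symbol is 1 heart; the values run from 1597 per kb for *Mlycd* to 2.65 per kb for *Elovl6*, and the groups overlap for every gene.

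Other genes of the pathway were taken in 5 lists by role, and 0 of the 51 tested passed an FDR of 10% with edgeR. The groups did not overlap in 5 of these 51 genes (9.8%), against 8.91% of all genes tested: *Slc25a1* and *Stk11* were higher with Tributyrin, and *Nr1h2*, *Fads3* and *Hacd4* lower. The 12 genes of SREBP processing and lipogenic regulation had a median log2 fold change of -0.02, with 5 above 0 and 7 below. *Mlxipl* encodes ChREBP, the carbohydrate-responsive factor that shares targets with SREBP-1. Of the 51 genes tested in the 5 lists it was the 1 with an unadjusted p under 0.05 (0.0382 in edgeR), where 4.25% of all genes tested had one. It gave 476, 587 and 534 normalized read counts with vehicle and 343, 509 and 410 with Tributyrin. Vehicle mouse 1 lay below Tributyrin mouse 2, so the groups overlapped, and the log2 fold change was -0.34 (SE 0.14, edgeR adjusted p = 0.999). *Insig1*, which holds SREBP in the endoplasmic reticulum and is itself an SREBP target, was at -0.16 (SE 0.11), and *Mid1ip1*, which promotes polymerization of acetyl-CoA carboxylase, at 0.12 (SE 0.09).

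The 7 genes of citrate, acetyl-CoA and NADPH supply had a median of 0.05, with 4 above 0. In *Slc25a1*, the carrier that exports citrate from mitochondria for *Acly*, the 3 Tributyrin values (153, 147 and 153 normalized read counts) lay above the 3 vehicle values (142, 138 and 104), though the log2 fold change of 0.23 (SE 0.15) had an unadjusted p of 0.155 in edgeR. *Me1*, a source of NADPH, and *Acss1*, a mitochondrial acetyl-CoA synthetase, were at 0.06 (SE 0.07) and 0.05 (SE 0.07).

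Of 17 other elongation and desaturation genes, 13 were tested, with 4 above 0 and 9 below and a median of -0.07. *Hacd1*, a dehydratase of the elongation cycle in muscle, was at -0.18 (SE 0.09), *Fads3*, a desaturase relative, at -0.16 (SE 0.08) and *Hacd4* at -0.25 (SE 0.13). In *Fads3* and *Hacd4* the groups did not overlap, with Tributyrin below vehicle. Their adjusted p was 0.999 in edgeR. The exons of *Hacd4* share 746 bases with *Focad* on the opposite strand, which had 391 to 644 counts. The *Hacd4* count is therefore uncertain without the strand setting.

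Mitochondria carry a fatty acid synthesis pathway of their own, which feeds lipoate production. Of its 9 genes 8 were matched and tested, and 7 had fold changes above 0 with a median of 0.07. *Oxsm*, its condensing enzyme, was at 0.14 (SE 0.08), *Cbr4* at 0.14 (SE 0.09) and *Acsf3*, which makes malonyl-CoA inside mitochondria, at 0.10 (SE 0.10).

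The 11 genes of the malonyl-CoA target and of AMP-activated protein kinase (AMPK), which phosphorylates and inhibits acetyl-CoA carboxylase, had a median of -0.06, with 4 above 0 and 7 below. The gamma subunits *Prkag1*, *Prkag2* and *Prkag3* were at 0.11 (SE 0.09), -0.12 (SE 0.10) and -0.33 (SE 0.26). The carnitine palmitoyltransferases belong to this list, and the count of *Cpt1b*, the muscle isoform, is uncertain because 2744 of its exonic bases are shared with *Gm44502* on the same strand.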

How the data were processed

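Ventricle RNA of 3 WD + Vehicle and 3 WD + Tributyrin mice was sequenced as single-end reads of 50 nt, and samples were grouped by their labelled treatment. The authors deposited whole-number counts of reads per Ensembl gene without normalization. The submitters' processing notes name cutadapt 1.13, STAR, HTSeq 0.6.1p1, DESeq2 1.14.1 and the build mm10; of the annotation release and the strand setting nothing is stated. Reads that htseq-count finds ambiguous or not unique are lost to overlapping or near-identical genes. No line of the files named no gene (0 lines).

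Identifiers were matched to GENCODE M21 (GRCm38), 54165 of 54232. The groups were compared with edgeR 4.0.16 (R 4.3.3), by the quasi-likelihood test on all 6 libraries, after TMM scaling, without covariates. Low genes were dropped by filterByExpr (at least 10 counts, total of at least 15), and Benjamini-Hochberg adjustment covered the remaining 14133 genes. Thresholds were an FDR of 10% and 5%, and an unadjusted p under 0.05 is given beside them. Normalized counts used DESeq2 size factors, and ratios (pseudocount 0.5) two-sided exact permutation tests. Libraries differed by more than sampling noise (chi-square per degree of freedom 7.40 to 31.8 over 15 pairs). At 20369746 to 32734485 counts per library, the counting SD of a gene's lowest count was 1.05% to 7.6%, and 25.8% for *Elovl6*. In at least 1 group this was more than the spread between mice for *Acaca*, *Elovl6*, *Elovl5*, *Fasn* and *Acacb*. Nothing says more of the replicates than that each is a labelled mouse, so p-values measure the spread between these samples.

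The genes and lists were chosen with earlier results of these data known. Named genes were the 10 members, from each list those past an FDR of 10% and the 3 with the smallest unadjusted p, cell type markers, and the 3 nearest profiles for the 2 most variable members. *Rai1*, *Focad*, *Cpt1b*, *Gm44502*, *Scd3* and *Scd4* were named outside this rule because of shared sequence, and *Nr1h2* and *Stk11* after their values were seen. Markers of endothelium, fibroblasts, leukocytes and red cells summed to 487 to 564, 579 to 709, 44.0 to 62.8 and 372 to 899 CPM over the 6 libraries. The group ranges overlapped for each of these sums. The 4 fibroblast markers were uneven: *Col1a1* was at -0.46 (SE 0.17) and *Lum* at -0.31 (SE 0.08), while *Dcn* was at 0.005 and *Pdgfra* at -0.007. The groups did not overlap in *Lum*, a separation seen in 8.91% of all genes tested. Alternatives to the scaling were the size factors of DESeq2 or only the library size, and alternatives to the filter were none or 5 CPM on average. The other alternatives were DESeq2 1.42.0 with and without a prior, limma-voom (limma 3.58.1), the replicate number as a block, leaving out each mouse, and a pseudocount of 5 for the ratios. The scripts were tested on simulated data and drawn with Python 3.11.15 and matplotlib 3.10.9. *Hsd17b8* was not matched by symbol and is not analysed here.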

Additional observations from a re-analysis of the deposited data

How the results depend on the processing

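0 of the 10 genes passed an FDR of 10% under every one of the 14 alternatives. *Fasn* and *Acly* kept log2 fold changes below 0 and *Srebf1* and *Mlycd* above 0 in 14 of 14. The lowest adjusted p of a member was 0.333, for *Srebf1* with no filter on low counts. The number of members with an unadjusted p under 0.05 was 1 with library size alone (*Acly*), 1 with no filter (*Srebf1*), 1 with the replicate block (*Srebf1*) and 0 to 2 with each mouse left out. The latter were *Fasn* and *Srebf1* without Tributyrin mouse 2, *Srebf1* without vehicle mouse 1 or Tributyrin mouse 3, and *Acly* without vehicle mouse 2 or Tributyrin mouse 1. Over all genes the share under that p was 4.25% in the main comparison. It was 5.65% with library size alone, 4.6% with no filter and 5.17% with the replicate block. With a mouse left out it was 2.68% to 9.56%, the highest without Tributyrin mouse 2. *Srebf1* had the smallest unadjusted p of the members with no filter (0.0037) and with the replicate block (0.0115). Over all genes, 167 passed an FDR of 10% with no filter, 11 with DESeq2 without a prior, 9 with DESeq2 with a prior, 2 with the replicate block and 0 to 3 with a mouse left out.

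The members' median was -0.0163 with library size alone, where the median of all genes was -0.0736, and -0.0691 to 0.0919 with a mouse left out, below 0 only without Tributyrin mouse 2. With library size alone, *Scd1*, *Elovl5* and *Acacb* turned to -0.0467, -0.0251 and -0.0075, and *Scd1* to -0.0096 with limma-voom. With a mouse left out the ranges that crossed 0 were -0.0905 to 0.0198 for *Acaca*, -0.0476 to 0.13 for *Acacb*, -0.24 to 0.14 for *Scd1*, -0.0256 to 0.16 for *Scd2*, -0.0086 to 0.13 for *Elovl5* and -0.11 to 0.48 for *Elovl6*. The differences in log2 ratio ran from -0.0409 to 0.20 for *Mlycd* to *Acacb*, -0.37 to 0.14 for *Scd1* to *Scd2* and -0.36 to 0.17 for *Elovl5* to *Elovl6*. The cause of these turns was not tested. *Elovl6* was not tested at a mean CPM of at least 5.

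The deviations of same-numbered mice from their group means had correlations of 0.20, 0.03 and 0.02. With 3 mice a group, and no reference value for such correlations, these cannot decide whether the numbers mark a pairing. Nothing in the labels says that they do. With the replicate block the members' median was 0.05. With 3 mice a group and *Elovl6* at 15 to 40 counts, only its large changes could be seen.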
